A study of Oryctolagus cuniculus with 8 samples.

Results

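The genes described here encode subunits of voltage-gated calcium channels in rabbit, and their RNA was compared between induced pluripotent stem (iPS) cells, which are reprogrammed body cells, embryonic stem (ES) cells and somatic cells. Members were all probes whose RefSeq accession belongs to CACNA1A, CACNA1B, CACNA1C, CACNA1E, CACNA2D1, CACNB1, CACNB2 or CACNB3, a rule that uses no measured value. These are 8 of the 680 genes that could be named on the arrays, and 26 of 1932 named probes.

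Voltage-gated calcium channels open when the membrane is depolarised and let calcium into the cell. A pore-forming alpha subunit sets the type of current, and auxiliary beta and alpha-2-delta subunits bring the pore to the membrane and tune its gating. The channels are best known from excitable cells, where they start contraction in muscle and transmitter release in neurons.

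Each of 8 samples of cultured Dutch rabbit cells was hybridised to 1 array. The late passage iPS group held the liver line at passage 23 and the stomach line at passage 22, and the early passage iPS group held the same lines at passages 7 and 6. Liver line and stomach line mean here the iPS lines iPS-L1 and iPS-S1, made from liver and stomach cells. ES replicate 1 was the line rdES4 and ES replicate 2 the line rdES2-1, and the somatic group held 1 sample of liver cells and 1 of stomach cells. The labels give no genotype, age or reprogramming factors, no promoter or vector, and do not say whether lines and tissues came from separate animals. The 2 samples of each group are different lines or tissues, so the p-values measure only the spread between those. No line or tissue has a repeat at the same passage, so technical spread cannot be told apart from it. Only the somatic cells were kept in somatic cell medium, the others in a medium for stem cells, so medium and cell type cannot be told apart. The 2 somatic samples are different tissues, and how far they differ counts into the shared spread.

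The 75th percentile of the signal was 273.8 to 341.5 on the iPS and ES arrays, against 154.8 (stomach cells) and 163.8 (liver cells) in the somatic group. Between 62.36% and 64.63% of probes were well above background on the iPS and ES arrays, against 58.42% (stomach cells) and 57.79% (liver cells). The arrays lay on 3 slides. Slide 1 held the liver line at both passages, ES replicate 1 and the liver cells, slide 2 held ES replicate 2 and the stomach cells, and slide 3 held the stomach line at both passages. As a check of the labels, POU5F1, a core factor of pluripotency, had log2 levels of 7.08 to 7.62 in iPS cells and 6.69 to 7.14 in ES cells, against -3.63 in liver cells and -3.46 in stomach cells. Of 5 hepatocyte markers with a probe, ALB and APOA1 were well above background on 0 arrays and TF, HP and RBP4 on all 8. Of 3 gastric markers ATP4B was so on 0, ATP4A on 7 and PGC on 8. By their brightest probes, HP read -2.53 in liver cells, its lowest of the 8 arrays, and 2.16 in stomach cells. TF read -1.62 in liver and -2.83 in stomach cells, below its 0.29 to 2.09 in iPS and ES cells. RBP4 read 1.89 in liver and 3.75 in stomach cells, above its -1.04 to 0.36 in iPS and ES cells. ATP4A and PGC read -4.40 and -4.08 in stomach cells and -4.66 and -3.95 in liver cells. Being above background therefore did not check the tissue labels. DCN, a matrix gene of fibroblasts, had levels of -7.50 to -5.70 in iPS cells and -6.64 and -6.06 in ES cells, against 5.42 in stomach cells and 4.44 in liver cells, by its brightest probe.

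Levels are log2 signals relative to the 75th percentile of the same array, so that 0 is that percentile, and a difference of 1 is a doubling. They are not compared between genes, because each probe binds with its own strength. Where a gene had several tested probes, the brightest on average stands for it. Of the 26 member probes, 23 were tested, 17 were well above background on all 8 arrays and 2 on none. Every member gene had a tested probe, and 7 of 8 had one that was well above background on all 8 arrays, the exception being CACNA1C. In bulk RNA, fewer cells with a gene's RNA and less of it per cell cannot be told apart.

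Against somatic cells, 1 member, CACNA1A, was higher in iPS cells, 4 members (CACNA1E, CACNA2D1, CACNB1 and CACNB3) were lower, and 3 did not pass the test. The same comparison called 67.7% of the 511 named genes tested (22.1% higher, 45.6% lower) and 66.6% of all 28852 tested probes (34.3% higher, 32.4% lower). The median difference over the members was -1.62, against -0.62 over the named genes and 0.02 over all tested probes. ES against somatic cells gave the same counts and the same 5 genes, with background shares of 64% for named genes (21.3% higher, 42.7% lower) and 64% for all probes (34.4% higher, 29.6% lower). The share of members called is close to that of the arrays as a whole. Both comparisons share the somatic samples.

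**Figure D1:**
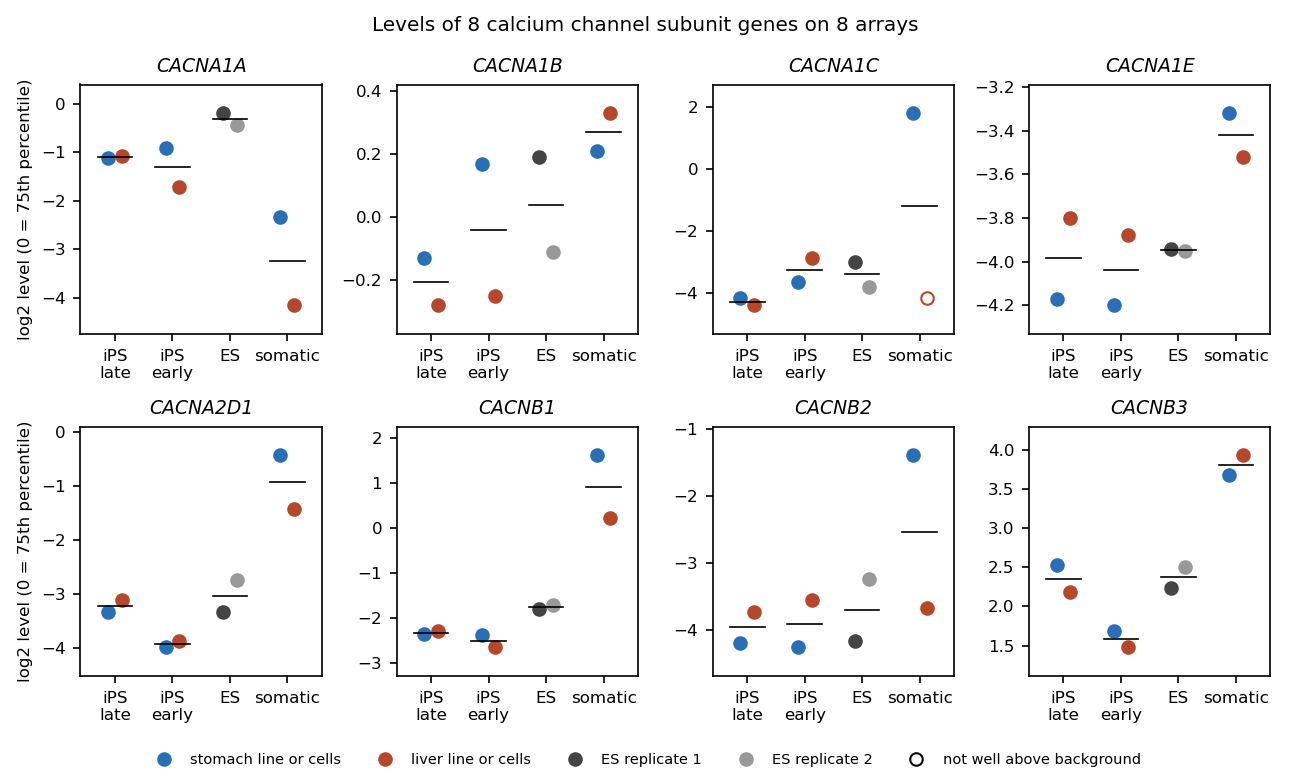
Log2 level (y axis, 0 is the 75th percentile of the array) of each of the 8 genes by group (x axis), with 1 point per array and a line at each group's mean; the open point is not well above background. Both somatic points lie above all iPS and ES points for CACNA1B, CACNA1E, CACNA2D1, CACNB1 and CACNB3 and below them for CACNA1A, while for CACNA1C and CACNB2 the stomach cells alone stand high. The share of all tested probes with such a separation was not counted, so it is not a result about these genes.

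CACNA1A encodes the pore of the P/Q-type channel, which triggers transmitter release at many synapses. Its log2 level was -1.08 at passage 23 and -1.72 at passage 7 in the liver line, -1.11 at passage 22 and -0.91 at passage 6 in the stomach line, and -0.20 and -0.44 in ES replicates 1 and 2, against -4.15 in liver cells and -2.34 in stomach cells. The order was ES above iPS above somatic cells, with no overlap between groups. iPS cells averaged -1.20 ± 0.27 (SD, n = 2 lines) and somatic cells -3.25 ± 1.28 (SD, n = 2), a rise of 2.04 (SE 0.60, adjusted p = 0.0304). ES cells averaged -0.32 ± 0.17 (SD, n = 2), a rise of 2.92 over somatic cells (SE 0.60, adjusted p = 0.00965).

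All 5 probes of CACNA1A gave the same picture, with iPS minus somatic differences of 1.70 to 2.04 and ES minus somatic differences of 2.50 to 2.92. All 5 passed the test for ES cells and 3 of 5 for iPS cells, the other 2 having adjusted p-values of 0.0509 and 0.05. The size depended on the background correction. With normexp, the probe that stands for the gene gave 0.632 for iPS and 1.380 for ES cells, both still called. Within slide 1, the liver line exceeded the liver cells by 2.75 and ES replicate 1 exceeded them by 3.94. Within slide 2, ES replicate 2 exceeded the stomach cells by 1.91. Slide 3 held only the stomach line, so a fit with the slide as a block rests on the liver line for iPS cells. The call for iPS cells was lost with the slide as a block (difference 2.24, adjusted p = 0.108) and without either ES sample (adjusted p = 0.0606 each), and that for ES cells without ES replicate 1 (difference 2.81, adjusted p = 0.0531).

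CACNA1B encodes the pore of the N-type channel, another channel of nerve terminals. One of its 2 probes was well above background on 0 arrays. The other read -0.28 at passage 23 and -0.25 at passage 7 in the liver line, -0.13 at passage 22 and 0.17 at passage 6 in the stomach line, 0.19 and -0.11 in ES cells, and 0.33 in liver cells and 0.21 in stomach cells. The somatic values lay above all iPS and ES values, but by little. The iPS minus somatic difference was -0.395 (95% interval -0.854 to 0.064, adjusted p = 0.105) and the ES minus somatic difference -0.233 (interval -0.692 to 0.226, adjusted p = 0.299). Without scaling between arrays the sign turned for CACNA1B, to 0.614 for iPS (adjusted p = 0.0237) and 0.639 for ES cells (adjusted p = 0.0208), where the median of all tested probes moved to 1.03 and 0.94. Leaving out the scaling shifts all probes of an array alike. Relative to those medians the differences were therefore the same as with scaling, at -0.413 and -0.303. With normexp background correction the differences relative to the median lay above 0, at 0.140 for iPS and 0.202 for ES cells. With no filter on dim probes they were 0.072 and 0.118.

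CACNA1E encodes the pore of the R-type channel. Again, 1 of 2 probes was well above background on 0 arrays. The tested one read -3.80 at passage 23 and -3.88 at passage 7 in the liver line, -4.17 at passage 22 and -4.20 at passage 6 in the stomach line, -3.94 and -3.95 in ES cells, and -3.52 in liver cells and -3.32 in stomach cells. The groups did not overlap between iPS or ES cells and somatic cells, though the whole range of the gene was under 1 log2 unit. The level fell by 0.596 in iPS cells (SE 0.172, adjusted p = 0.0292) and by 0.528 in ES cells (SE 0.172, adjusted p = 0.044) relative to somatic cells. For CACNA1E the call held under 12 of 19 alternatives for iPS and 9 of 18 for ES cells, the adjusted p for iPS cells was 0.0508 with origin as a replicate block, and without scaling the sign turned (0.413, adjusted p = 0.162, for iPS and 0.345, adjusted p = 0.232, for ES cells). Within slide 1 the difference from liver cells was -0.325 for the liver line and -0.430 for ES replicate 1, and within slide 2 the ES minus stomach cell difference was -0.626.

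CACNA1C encodes the pore of the L-type channel of heart and smooth muscle, the target of dihydropyridine drugs. Its single probe read -4.41 at passage 23 and -2.89 at passage 7 in the liver line, -4.17 at passage 22 and -3.65 at passage 6 in the stomach line, and -3.01 and -3.81 in ES cells, against 1.80 in stomach cells. The liver cells read -4.18 and were the only array not well above background, so only 1 of 2 somatic arrays measured the gene. Stomach cells thus stood alone, and the liver cells lay among the iPS values.

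No difference between groups passed the test for CACNA1C: iPS minus somatic was -2.59 (95% interval -7.46 to 2.29, adjusted p = 0.275) and ES minus somatic -2.22 (interval -7.09 to 2.66, adjusted p = 0.347). The value rests on the stomach cells. Without liver cells the differences were -5.58 for iPS (adjusted p = 0.000939) and -5.21 for ES cells (adjusted p = 0.00108), with the single somatic sample assumed to vary like the other groups. Without stomach cells the only somatic reading is one not well above background, so no difference is given. The level in stomach cells was at least 63-fold that in liver cells and 52.2-fold that of the stomach iPS line.

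CACNA2D1 encodes an alpha-2-delta subunit, the binding site of gabapentin. Its level was -3.11 at passage 23 and -3.87 at passage 7 in the liver line, -3.33 at passage 22 and -3.99 at passage 6 in the stomach line, and -3.33 and -2.74 in ES cells, against -1.43 in liver cells and -0.44 in stomach cells. Somatic cells stood above all iPS and ES arrays, and iPS and ES cells overlapped. iPS cells averaged -3.58 ± 0.12 (SD, n = 2 lines) and somatic cells -0.93 ± 0.70 (SD, n = 2), so the level fell by 2.64 in iPS cells (SE 0.38, adjusted p = 0.00294), or 6.25-fold. ES cells averaged -3.04 ± 0.41 (SD, n = 2), where the level fell by 2.10 (SE 0.38, adjusted p = 0.00652). The second probe of CACNA2D1 gave -2.57 and -2.06, and within slides the differences of the first were -2.07 for the liver line and -1.90 for ES replicate 1 against liver cells and -2.31 for ES replicate 2 against stomach cells.

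CACNB1 encodes the beta subunit of the skeletal muscle L-type channel, which is also found in other tissues. Its level was -2.31 at passage 23 and -2.66 at passage 7 in the liver line, -2.36 at passage 22 and -2.38 at passage 6 in the stomach line, and -1.80 and -1.72 in ES cells, against 0.21 in liver cells and 1.61 in stomach cells. No group overlapped another, in the order somatic above ES above iPS cells. The level fell by 3.34 in iPS cells (SE 0.46, adjusted p = 0.00245), or 10.1-fold, and by 2.67 in ES cells (SE 0.46, adjusted p = 0.00534), or 6.36-fold, relative to somatic cells. In size, this was the largest called iPS difference of a member gene, and the second largest for ES cells after CACNA1A.

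All 6 probes of CACNB1 passed the test in both comparisons, with differences of -3.34 to -2.78 for iPS and -2.84 to -2.27 for ES cells. One of these probes was printed at 5 spots, and over them the SD of the log2 level was 0.032 to 0.145 on 7 arrays and 0.413 on the stomach line at passage 22. One spot was marked as uneven or outlying on that array and on 4 of the others. Averaging left out 2 spots marked on any array and used 3. Within slide 1 the liver line differed from liver cells by -2.69 and ES replicate 1 by -2.01, and within slide 2 ES replicate 2 differed from stomach cells by -3.33.

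CACNB2 encodes the main beta subunit of the heart channel. Its level was -3.72 at passage 23 and -3.55 at passage 7 in the liver line, -4.19 at passage 22 and -4.25 at passage 6 in the stomach line, and -4.15 and -3.24 in ES cells, against -3.67 in liver cells and -1.39 in stomach cells. Only the stomach cells stood apart. The iPS minus somatic difference was -1.40 (95% interval -3.45 to 0.66, adjusted p = 0.177) and the ES minus somatic difference -1.16 (interval -3.22 to 0.89, adjusted p = 0.252), and none of the 5 tested probes passed. The sixth probe was well above background on 2 arrays, the liver line at passage 7 and the stomach cells, and was not tested. CACNB2 passed the test without liver cells (-2.53, adjusted p = 0.0112, for iPS and -2.30, adjusted p = 0.0152, for ES cells), where stomach cells are the single somatic sample and are assumed to vary like the other groups, and with normexp background correction (-1.05, adjusted p = 0.00736, and -0.87, adjusted p = 0.0169).

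CACNB3 encodes a beta subunit found with N-type and other neuronal channels and in many non-excitable cells. Its level was 2.18 at passage 23 and 1.48 at passage 7 in the liver line, 2.53 at passage 22 and 1.69 at passage 6 in the stomach line, and 2.24 and 2.51 in ES cells, against 3.93 in liver cells and 3.68 in stomach cells. Somatic cells stood above all other arrays, and here the liver cells were the higher of the pair. The level fell by 1.84 in iPS cells (SE 0.19, adjusted p = 0.000921), or 3.58-fold, and by 1.43 in ES cells (SE 0.19, adjusted p = 0.00204), or 2.70-fold, relative to somatic cells. The adjusted p of CACNB3 was the smallest among the member genes in both comparisons.

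The second probe of CACNB3 was far dimmer, well above background on 6 arrays and not on the early passage iPS arrays, and its differences of -1.16 for iPS (adjusted p = 0.0105) and -0.89 for ES cells (adjusted p = 0.0256) had the same sign. Within slides the differences of the first probe were -2.10 for the liver line and -1.69 for ES replicate 1 against liver cells, and -1.18 for ES replicate 2 against stomach cells. Without scaling, the ES difference of CACNB3 was -0.56 (adjusted p = 0.0721).

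**Figure D2:**
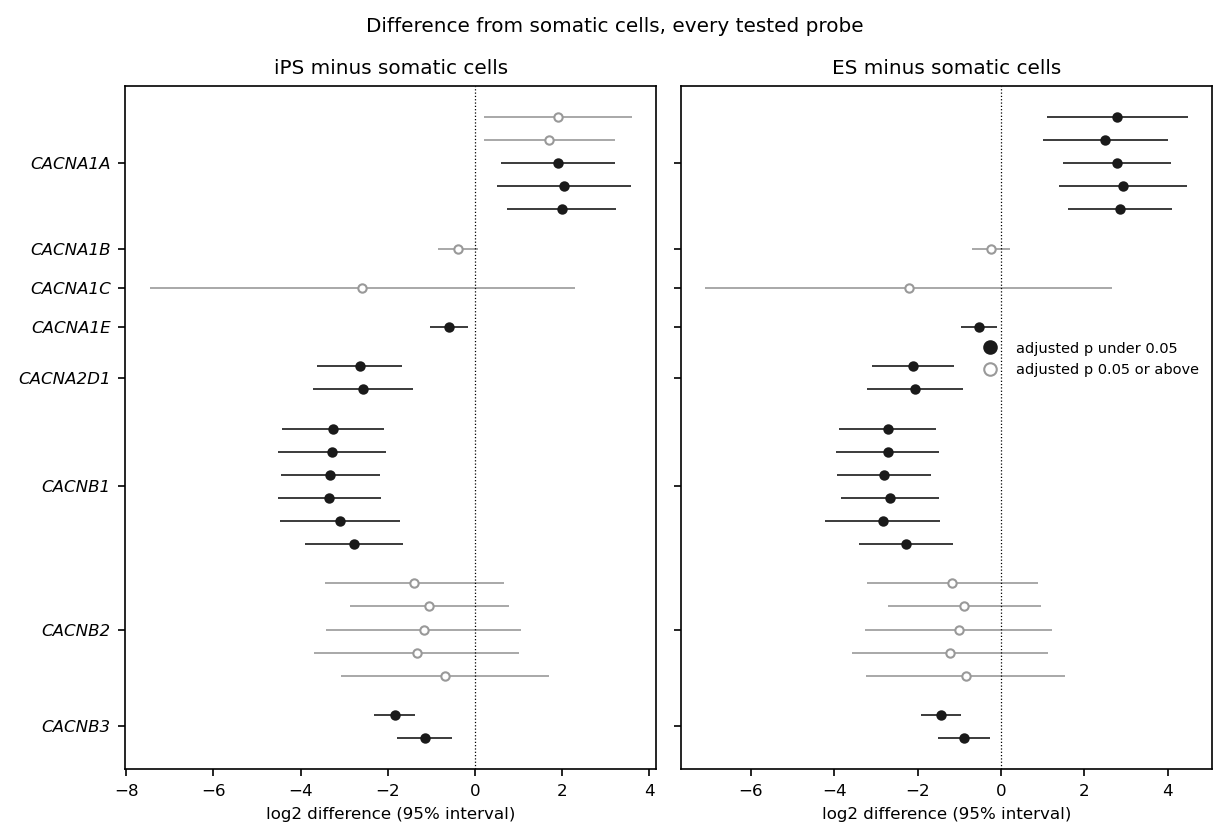
Log2 difference from somatic cells (x axis, with 95% interval) of each of the 23 tested member probes, 1 row per probe grouped by gene (y axis), for iPS cells on the left and ES cells on the right; filled points have an adjusted p under 0.05. Probes of a gene lie close together, all CACNA1A points are right of 0, and the widest interval is that of CACNA1C.

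Counted by probe, 14 of 23 tested member probes passed for iPS against somatic cells, 3 higher and 11 lower, and 16 of 23 for ES against somatic cells, 5 higher and 11 lower. Over all tested probes, 66.6% were called for iPS (34.3% higher, 32.4% lower) and 64% for ES cells (34.4% higher, 29.6% lower). Probes of 1 gene share their target and are not independent. Over the 8 arrays the lowest correlation between probes of a gene was 0.990 for CACNA1A, 0.983 for CACNB1, 0.974 for CACNA2D1 and 0.970 for CACNB3. It was lower for CACNB2, between 0.813 and 0.981, where several probes were near background.

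Between iPS and ES cells, no member passed the test, and neither did any of the 28852 probes (0% called by limma, smallest adjusted p 0.0925). At an unadjusted p under 0.05 there were 2142 probes (7.42%) and 0 members. CACNA1A and CACNB1 were the 2 of 8 members whose iPS and ES arrays did not overlap, both with the iPS arrays lower. The share of all tested probes without such overlap was not counted, so 2 of 8 is not a result about these genes. The difference was -0.88 for CACNA1A (95% interval -2.41 to 0.65, adjusted p = 0.817) and -0.67 for CACNB1 (interval -1.84 to 0.50, adjusted p = 0.818). For CACNB3 it was -0.405 (interval -0.880 to 0.070, adjusted p = 0.716), and for CACNA1E -0.068 (interval -0.509 to 0.373, adjusted p = 0.965). The intervals allow a 2-fold difference for CACNA1A and CACNB1, and also for CACNA1C (-5.24 to 4.50), CACNB2 (-2.28 to 1.82) and CACNA2D1 (-1.52 to 0.44), so the test does not show that iPS and ES cells are alike in these 5 genes.

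Between late and early passage iPS cells, no member passed the test, and 8 of 28852 probes did (0.0277%, of which 0.00693% higher and 0.0208% lower). At an unadjusted p under 0.05 there were 2413 probes (8.36%), and 1 member gene was among them. This was CACNB3, with 2.35 ± 0.24 at late and 1.58 ± 0.14 at early passage (SD, n = 2 lines each). The difference was 0.77 (SE 0.19, adjusted p = 0.478, limma without pairing by line). Its late arrays lay above the early ones in both lines, by 0.699 in the liver line and 0.841 in the stomach line, and came to 2.18 and 2.53, beside 2.24 and 2.51 in ES cells.

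CACNA2D1 had late minus early differences of 0.760 in the liver line and 0.655 in the stomach line (mean 0.71, SE 0.35, adjusted p = 0.654). CACNA1C had the most negative ones, -1.52 in the liver line and -0.52 in the stomach line (mean -1.02, SE 1.75, adjusted p = 0.941).

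By the probe that stands for the gene, 4 of the 8 members had a late array above the early one in both lines (CACNA1E, CACNA2D1, CACNB1 and CACNB3). In both lines 2 lay below it (CACNA1B and CACNA1C), and 2 had opposite signs (CACNA1A and CACNB2). The other CACNB1 probes gave -0.128 to 0.009 in the liver line and -0.236 to 0.422 in the stomach line. Probes of CACNA1A and CACNB2 also differed in sign. The same shares over all named genes were not counted. The SD of late minus early differences over all tested probes was 0.573 in the liver line and 0.541 in the stomach line. CACNA1A, CACNA1C, CACNA2D1 and CACNB3 lay beyond it in the liver line, and CACNA2D1 and CACNB3 in the stomach line. The second probes of CACNA2D1 (0.323) and CACNB3 (0.142) lay within it in the liver line. In the stomach line they gave 0.883 and 0.571, beyond it. The share of all tested probes beyond 1 SD was not counted, so these values do not single out these members.

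**Figure D3:**
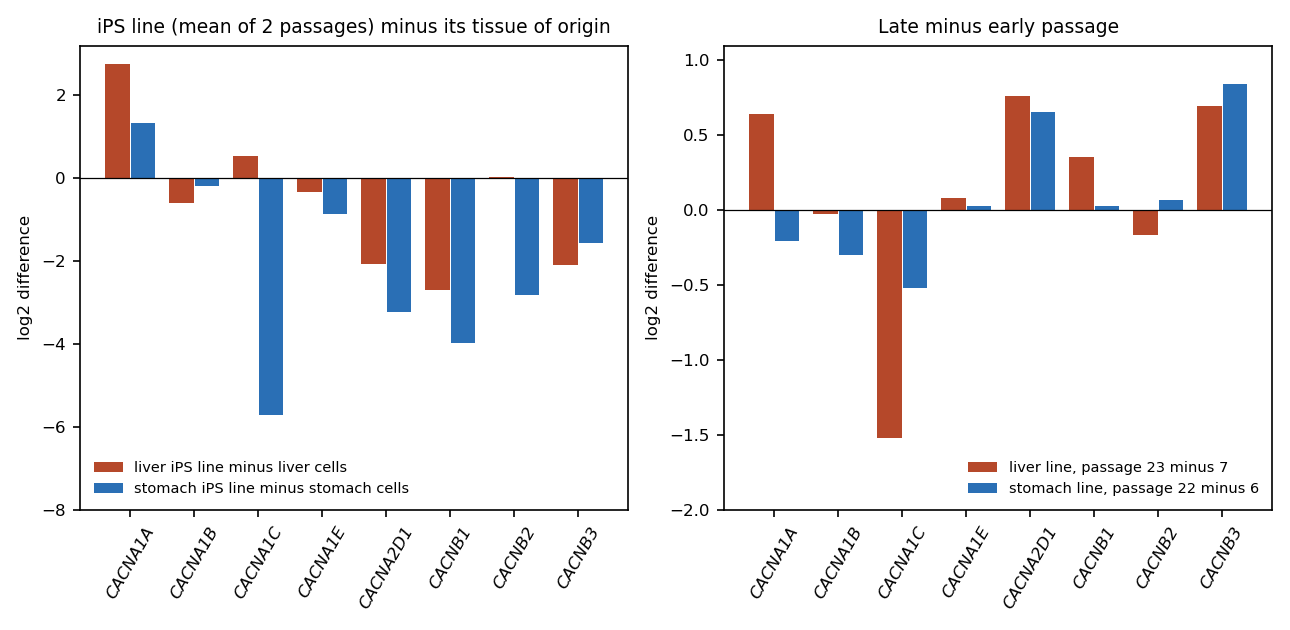
Log2 differences (y axis) of each gene within 1 origin: on the left, the mean of both passages of an iPS line minus the cells of its tissue of origin, and on the right, late minus early passage of each line, with 1 value per line and no error. CACNA1C and CACNB2 are lower in the stomach line than in stomach cells and near or above 0 in the liver line against liver cells, where CACNA1C in liver cells is not well above background.

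The 2 somatic samples differed in several members. With 1 sample each there is no test. Stomach cells were over 2-fold above liver cells in 4 of 8 members, against 9.59% of named genes and 5.22% of all tested probes, and over 2-fold below in 0, against 11.4% and 5.15%. These 4 were CACNA1C (at least 63-fold), CACNB2 (4.84-fold), CACNA1A (3.50-fold) and CACNB1 (2.64-fold), and CACNA2D1 followed at 1.98-fold. Only 0.0485% of tested probes had a larger stomach minus liver difference than that of CACNA1C, and 1.25% a larger one than that of CACNB2. The stomach cells were the highest of the 8 arrays for both the pore gene CACNA1C and the beta subunit gene CACNB2.

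Set against the tissue of its own origin, the stomach line had CACNA1C differences of -5.71 and CACNB2 differences of -2.83 from stomach cells. The mean of both liver line passages was at least 1.44-fold above liver cells for CACNA1C, which was not well above background there. Only passage 7 read above the liver cells (-2.89, against -4.18), and passage 23 read -4.41. For CACNB2 the liver line differed from liver cells by 0.037. For CACNA2D1 and CACNB1, both lines were below their tissue: -2.07 and -2.69 in the liver line, and -3.22 and -3.98 in the stomach line. CACNB3 had -2.10 in the liver line and -1.58 in the stomach line. CACNA1A was above the tissue in both, by 2.75 in the liver line and 1.33 in the stomach line.

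Across the 8 arrays, levels of CACNA2D1 and CACNB1 followed each other most closely among the members (Pearson r = 0.975), and CACNA1C and CACNB2 had r = 0.886. CACNA1A was negatively correlated with each other member, from -0.180 with CACNA1C to -0.712 with CACNB3. These are descriptions over 8 arrays that share lines, slides and scaling. For CACNA1C and CACNB2, the stomach cells are the 1 array that stands apart in both. Among 440 other named genes well above background on at least 6 arrays, CACNB1 was most like MLN (r = 0.993) and CYP4B1 (0.992), CACNA2D1 most like MLN (0.986) and HLTF (0.984), and CACNB3 most like GHR (0.985) and BMP2 (0.979). For CACNA1A these were MDK (0.959) and IGLL1 (0.954), and for CACNA1E HBA (0.966) and CLCN3 (0.923). HIF1A appeared for both CACNB2 (0.941, followed by APOE with 0.907) and CACNA1C (0.914, after HPX with 0.928).

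Other genes of calcium handling were taken from lists of 134 symbols, of which 38 had a named probe and 29 were tested. Of these 29, 6 were higher, 7 lower and 16 not called in iPS against somatic cells, and 6 were higher, 9 lower and 14 not called in ES against somatic cells. Over all named genes, 67.7% were called for iPS and 64% for ES cells, a larger share than in these lists. None passed in iPS against ES or late against early iPS cells. Of 18 further subunits of voltage-gated calcium channels only CACNA1S, the skeletal muscle pore, and CACNG1, a skeletal muscle gamma subunit, had a probe. Of these, CACNA1S was well above background on 0 arrays and CACNG1 on 2, and neither was tested.

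In the list of calcium store release and refilling, 5 of 13 tested genes were higher and 3 lower in iPS cells (median -0.345), and 4 were higher and 3 lower in ES cells (median 0.06). The genes called higher were RYR1, CASQ1 and SRL in both, ATP2A2 and JPH1 in iPS cells and JPH2 in ES cells, and those called lower were PLN, CASQ2 and CALR in both. SRL, a store protein of muscle, turned its sign with normexp (-0.579 for iPS and -0.537 for ES cells) and with dim signals raised to the floor of the array (-0.059 and -0.358). JPH2, which like JPH1 ties the store to the cell membrane, was higher by 0.82 in ES cells (adjusted p = 0.0235) and turned its sign with normexp (-0.281). RYR1, the calcium release channel of skeletal muscle, was higher by 1.96 in iPS (adjusted p = 0.00373) and 2.25 in ES cells (adjusted p = 0.0024) than in somatic cells. CASQ1, a calcium-binding protein of the store, passed the background mark on 0 of 2 somatic arrays and was at least 1.78-fold higher in iPS (adjusted p = 0.00554) and at least 1.27-fold higher in ES cells (adjusted p = 0.0113). With normexp background correction the signs of RYR1 in iPS cells (-0.004) and of CASQ1 in both (-0.270 and -0.259) turned, so their direction depended on the background correction. JPH1 was higher by 2.50 in iPS cells (adjusted p = 0.0311), and had 2.14 in ES cells (adjusted p = 0.0516).

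PLN, an inhibitor of the calcium pump, fell by 3.31 in iPS cells (adjusted p = 0.00227), and was at least 13.8-fold lower in ES cells (adjusted p = 0.00149), whose arrays had it near background. CASQ2, the heart form of calsequestrin, fell by 1.38 in iPS (adjusted p = 0.00272) and 1.53 in ES cells (adjusted p = 0.00195) by its brightest probe. The size depended on the probe. Its dimmest probe read -3.97 to -3.11 in iPS and -3.20 and -3.67 in ES cells, against 1.14 in liver cells and 0.65 in stomach cells. CALR, a calcium-binding chaperone of the store, fell by 1.34 in iPS (adjusted p = 0.00327) and 1.00 in ES cells (adjusted p = 0.00915). RYR3, another release channel, read -0.27 in stomach cells and -5.83 to -4.86 on the other 7 arrays, so its only high sample is the one that is high in CACNA1C. Its iPS minus somatic difference was -2.83 (adjusted p = 0.152).

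Of 8 tested regulators and calcium sensors, 0 were higher and 3 lower in iPS cells (median -0.304), and 0 higher and 4 lower in ES cells (median -0.410). CAMK2D, a calmodulin-dependent kinase that acts on L-type channels, fell by 3.47 in iPS (adjusted p = 0.000431) and 3.72 in ES cells (adjusted p = 0.000362). PPP3CA, the catalytic subunit of calcineurin, fell by 1.92 in iPS (adjusted p = 0.000585) and 1.84 in ES cells (adjusted p = 0.000668). PRKG1, a kinase activated by cyclic GMP, fell by 1.89 in iPS cells (adjusted p = 0.0124) and was at least 4.24-fold lower in ES cells (adjusted p = 0.00318). PRKACA, a catalytic subunit of protein kinase A, had -0.472 in iPS cells (adjusted p = 0.0775) and fell by 0.742 in ES cells (adjusted p = 0.0205), relative to somatic cells.

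TRPC1, a cation channel of the cell membrane, had 0.525 in iPS cells (adjusted p = 0.149) and was higher by 1.31 in ES cells (adjusted p = 0.011) than in somatic cells, with its sign turned under normexp (-0.340 and -0.061). The calcium pump ATP2B1, which exports calcium, was higher by 0.93 in iPS (adjusted p = 0.0185) and 1.09 in ES cells (adjusted p = 0.0111), though 1 of its 3 probes had the opposite sign (-0.370 and -0.385, not called). KCNMB1, the only tested gene of calcium-activated potassium and chloride channels, did not pass (-0.591, adjusted p = 0.12, in iPS and -0.197, adjusted p = 0.568, in ES cells).

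**Figure D4:**
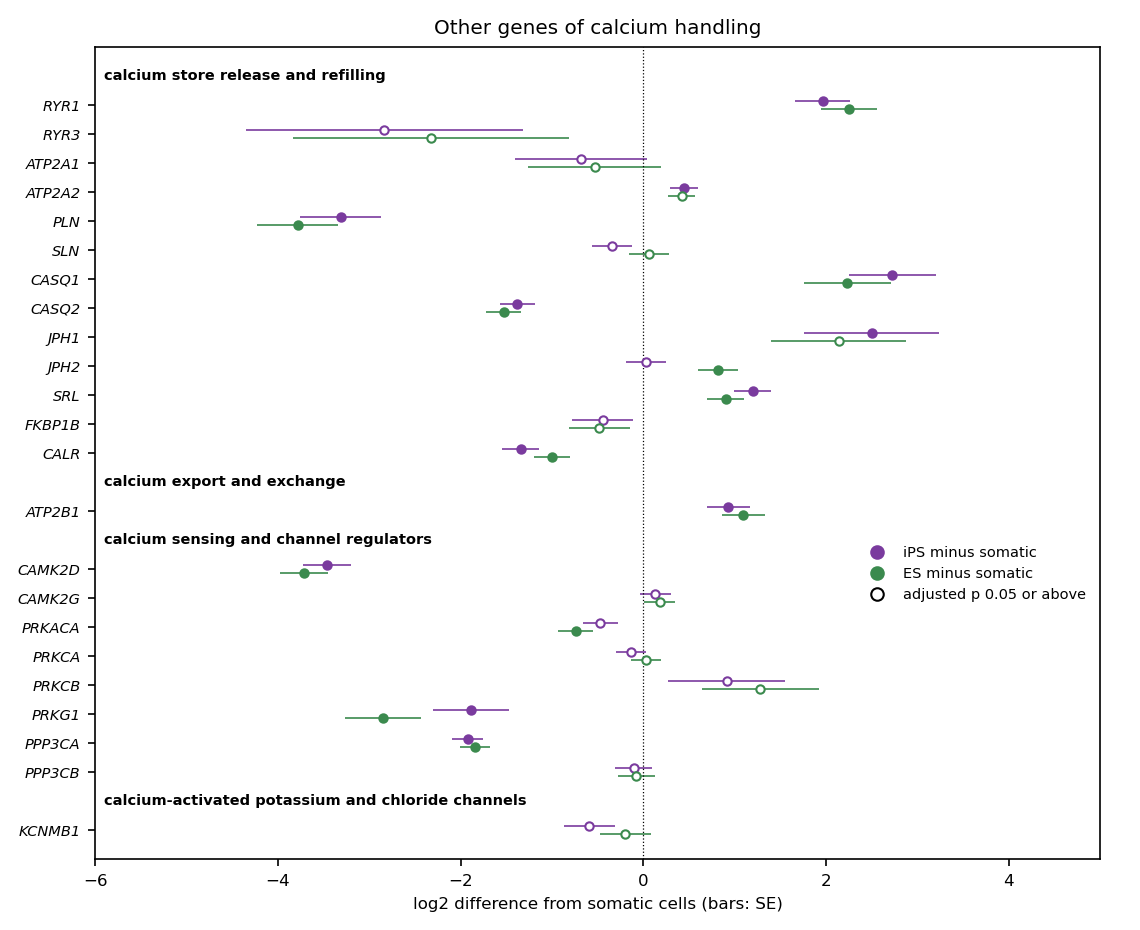
Log2 difference from somatic cells (x axis, bars are SE) of 23 of the 29 tested genes, those of calcium stores, export, sensing and calcium-activated channels (y axis, grouped by list), for iPS and ES cells; open points have an adjusted p of 0.05 or above. Points left of 0 include PLN, CAMK2D and PRKG1, and points right of 0 include RYR1, CASQ1, JPH1 and ATP2B1.

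Markers of the cell types known for these channels were read beside the members. No neuron marker of 12 listed had a named probe. Of 10 smooth muscle markers 5 had a probe and 4 were tested, and all 4 were lower in iPS (median difference -2.95) and ES cells (-3.16) than in somatic cells, as CACNA2D1, CACNB1 and CACNB3 were. They did not move with CACNA1C and CACNB2 between the somatic samples: ACTA2 read 5.13 in stomach cells and 7.02 in liver cells, CALD1 5.54 and 6.54, TPM1 4.03 and 4.91, and TPM2 -2.25 and -1.17. MYH11, the myosin of mature smooth muscle, was well above background on 2 arrays and not tested. Of 12 cardiac markers 4 had a probe, RYR2 was well above background on 0 arrays, and PLN (-2.22 and -0.88) and CASQ2 (2.03 and 2.43) were lower in stomach than in liver cells. Of 12 skeletal muscle markers 6 had a probe and 5 were tested, of which TNNC2, RYR1 and CASQ1 were higher and TNNI2 lower in both iPS (median of the 5 differences 1.96) and ES cells (2.23) than in somatic cells, and CKM was not called. MYH1, a myosin of skeletal muscle, was well above background on 0 arrays. Of 10 fibroblast markers 4 were tested, and all 4 were lower in iPS (median difference -7.66) and ES cells (-8.48) than in somatic cells. Among all named genes, 45.6% were lower in iPS (median difference -0.621) and 42.7% in ES cells (-0.442). The part of cell makeup in the member results was not tested.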

How the data were processed

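RNA was measured on 8 one-colour Agilent arrays, 1 per sample. Per the file headers, the deposited intensity of each spot came from Agilent Feature Extraction 10.5.1.1, after background subtraction and with no scaling between arrays, and a mark said whether a spot was well above background. The deposited value table of the authors is on a log2 scale and matched the levels used here after centring each probe on its median over the arrays (r = 1 on every array), with column medians from -0.042 to 0.342; how the authors made it is not given in the sources used here.

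From the intensities, the log2 signal minus the 75th percentile of its array was taken for 43603 probes, controls left out, spots of 1 probe were averaged, and a spot with an uneven or outlier mark on 1 or more arrays was dropped, with 19 probes that had no other spot. Probes well above background on both arrays of at least 1 of the 4 groups were tested, which gave 28852. Symbols came from RefSeq's genes of assembly mOryCun1.1, matched on accession without version, and 1932 probes of 680 genes had one. The tested probe with the highest mean level stood for its gene.

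The test was that of limma 3.58.1 (R 4.3.3), two-sided, with Benjamini-Hochberg adjustment over all tested probes and a threshold of 0.05. For the comparisons of iPS, ES and somatic cells, both arrays of an iPS line were averaged, leaving 6 units in 3 groups with a shared spread, and late against early iPS cells used the 8 arrays in 4 groups. A gene is dim in a group when it is not well above background on any of its arrays; its fold is then a bound against its own signal or the lowest signal well above background on that array, whichever is higher. The normexp alternative (offset 50) used the median spot signal, because the files held no mean signal. The script was tested on simulated data. Named were all 8 members with every probe, members of the lists, and for each member the 2 named genes most alike by Pearson r over the arrays among those well above background on at least 6. The likeness of 1 member and some genes of the lists are not reported here. The members and lists were chosen with earlier results of these data known. The late and early arrays of a line can be paired because their labels give the same line (r = 0.224 between their deviations from the group means over the tested probes). The main test of late against early iPS cells did not use this pairing, so its SE and p-values are unpaired. Origin as a replicate block was run as an alternative. The deviations of the liver line and of the liver cells correlated at 0.021 for the early and 0.013 for the late array, with 2 samples a group. The number of arrays limits the precision.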

Additional observations from a re-analysis of the deposited data

Results flagged for a closer look

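For CACNA1A, the late array lay above the early one in the liver line, by 0.640 on the log2 scale, and below it in the stomach line (-0.205). For CACNB2 the direction was the other way round, with -0.169 in the liver line and 0.069 in the stomach line. Both pairs are listed because the lines ran in opposite directions by the probe that stands for the gene. Not all other probes shared this. For CACNA1A they gave 0.533 to 0.817 in the liver line and -0.053 to 0.096 in the stomach line. The other tested CACNB2 probes gave -0.774 to 0.178 in the liver line and -1.623 to 0.145 in the stomach line. Each line gave 1 array per passage, and the difference between the lines was not tested.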

How the results depend on the processing

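CACNA2D1 and CACNB1 kept their direction and call against somatic cells under all alternatives run (19 for iPS, 18 for ES cells), and CACNB3 did so for iPS cells. Slide 3 held only the stomach line, so with the slide as a block the iPS minus somatic value rests on the liver line. For iPS against somatic cells, 19219 probes and 5 members were called; with the slide as a block there were 9922 probes and 3 members, and leaving out 1 array gave 18317 to 19250 probes and 3 to 7 members. For ES against somatic cells (18465 probes, 5 members), leaving out 1 array gave 14982 to 18465 probes and 3 to 6 members. For iPS against ES cells (0 probes), no scaling called 2 and the line as a random block 6. For late against early iPS cells (8 probes), 0 were called with no filter on dim probes, with probes well above background on all 8 arrays, with dim signals raised to the floor of their array and with the slide as a block, 4 with the mean over the probes of a gene, and 0 to 1 without 1 array. No member was called in these last comparisons under any alternative. The median of all tested probes in iPS against somatic cells was 0.02 as reported, 0.11 with quantile normalization, 1.03 without scaling and -0.39 with normexp, and the share of higher calls was 51.4%, 55.5%, 82.5% and 33.3% (38.8% with no filter); for ES cells it was 53.7%, 56.3%, 81.4%, 34.2% and 40.1%. Members called higher and lower were 1 and 3 with quantile normalization, 1 and 5 with normexp, and without scaling 2 and 3 for iPS and 2 and 2 for ES cells. Signs turned without scaling for CACNA1B (0.614 for iPS, 0.639 for ES cells), CACNA1E (0.413, 0.345), PPP3CB (0.901, 0.794), SLN (0.664, iPS), PRKCA (0.873, iPS) and PRKACA (0.130, ES). With normexp they turned for RYR1 (-0.004, iPS), CASQ1 (-0.270 for iPS, -0.259 for ES cells), JPH2 (-0.612, -0.281), SRL (-0.579, -0.537), HCN4 (-0.625, -0.550), TRPC1 (-0.340, -0.061), SLN (-0.585, ES) and PRKCA (-0.565, ES), and with dim signals raised for SRL (-0.059, -0.358). Leaving out the scaling moved all probes of a comparison by the same amount, so those signs turned with the shift of the median. The cause of the turns with normexp and with dim signals raised was not tested. Origin as a replicate block (liver or stomach), for which the iPS lines and the tissues share a label, changed the call of no member but CACNA1E in iPS against somatic cells (-0.596, adjusted p = 0.0508). CACNA1C has no value with probes well above background on all 8 arrays. Signals near background limit the second probe of CACNB3 and most probes of CACNB2.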
